A study of Mus musculus with 2 samples.

Results

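Metallothionein-high (Mt-high) beta cells are insulin-rich islet cells in which the transcripts of Mt1 and Mt2 take an unusually large part of the RNA. Droplet single-cell RNA sequencing counts were available for pancreatic islet cells of wild-type C57BL/6J mice, a common inbred strain, fed for 6 weeks from weaning either a high-fat diet with 60% fat (HFD, 5 mice) or regular chow (4 mice). Each diet had 1 library with its mice pooled, cells could not be tied to a mouse, and the islets had spent a night in culture before they were dispersed, all of which limits the cells as a picture of the islet in the animal. No replicate check of any difference was possible, no test was made, and each statement describes these 2 libraries. Beta cells were barcodes with at least 500 genes, at most 10% mitochondrial unique molecular identifiers (UMIs) and at least 20% of UMIs from Ins1 and Ins2. Mt-high cells were those at or above the 90th percentile of the summed Mt1 and Mt2 share among the beta cells of their library, and they were set against Mt-low cells, at or below the 50th percentile. This gave 310 Mt-high cells of 3100 beta cells and 4539 barcodes in the HFD library, and 458 of 4574 beta cells and 6509 barcodes in the chow library, 768 of 11048 barcodes in all. The Mt-low cells numbered 1550 in the HFD and 2287 in the chow library. The libraries held 68544729 UMIs for HFD and 89292222 UMIs for chow, and they shared 44 barcode sequences.

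Metallothioneins are small cysteine-rich proteins that bind zinc and copper and take up oxidants. Their genes are switched on by the zinc-sensing factor MTF1 through metal response elements in the promoter, and glucocorticoids, hypoxia and inflammatory signals also raise them. Beta cells hold much zinc, which the granule transporter ZnT8, encoded by Slc30a8, loads into insulin granules for packing of the hormone.

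Mt1 and Mt2 are neighbours on mouse chromosome 8, with 5315 bases between the gene records of RefSeq (GRCm38.p6, the build of the sequence tables and not necessarily that of the counts). Sequence before their starts is shown because both genes chose the cells and moved together. Capitals mark the metal response element core, searched as TGCACNC or TGCGCNC on both strands. For Mt2 the 250 bases before the start are given (chr8:94172368-94172617, plus strand), and for Mt1 the 30 bases with its core (chr8:94179059-94179088, plus strand), since a further Mt1 transcript begins inside the longer stretch.
Mt1: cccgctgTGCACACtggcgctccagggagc
Mt2: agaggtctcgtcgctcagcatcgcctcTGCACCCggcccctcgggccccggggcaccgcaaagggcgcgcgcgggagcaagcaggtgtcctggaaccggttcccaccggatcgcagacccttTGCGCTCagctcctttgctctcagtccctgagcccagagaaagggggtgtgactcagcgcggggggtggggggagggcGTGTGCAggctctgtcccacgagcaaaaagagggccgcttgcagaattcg
Over 300 bases, 250 before and 50 after the start, Mt1 held 3 cores and Mt2 held 4. At least 3 cores were present in 1.97% and at least 4 in 0.517% of 32851 such mouse windows. The Mt1 core printed lies at bases -23 to -17, and those of Mt2 at -223 to -217, -128 to -122 and -50 to -44, the last on the minus strand. The Mt2 window also held 1 antioxidant response element core (TGACNNNGC, either strand, in 12.4% of windows), and neither gene held the STAT motif TTCNNNGAA, which 8.3% of windows held.

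The metallothionein share formed a continuous range and not a separate peak. The threshold of the Mt-high cells was 0.697% of UMIs in the HFD library and 0.740% in the chow library, and that of the Mt-low cells was 0.162% and 0.126%. The member nearest the threshold had 0.698% in the HFD library, with 0.697% in the nearest cell outside, and 0.740% against 0.739% in the chow library. The median member had 0.973% in the HFD library, against 0.0532% in Mt-low cells, and 1.12% in the chow library, against 0.0449% in Mt-low cells. The highest single cell reached 5.71% in the HFD and 10.4% in the chow library. Mt-high cells held 40.4% of all Mt1 and Mt2 UMIs of HFD beta cells and 43.4% of those of chow beta cells. At the other end, 95 HFD beta cells (3.06%) and 75 chow beta cells (1.64%) had no UMI of either gene.

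**Figure D1:**
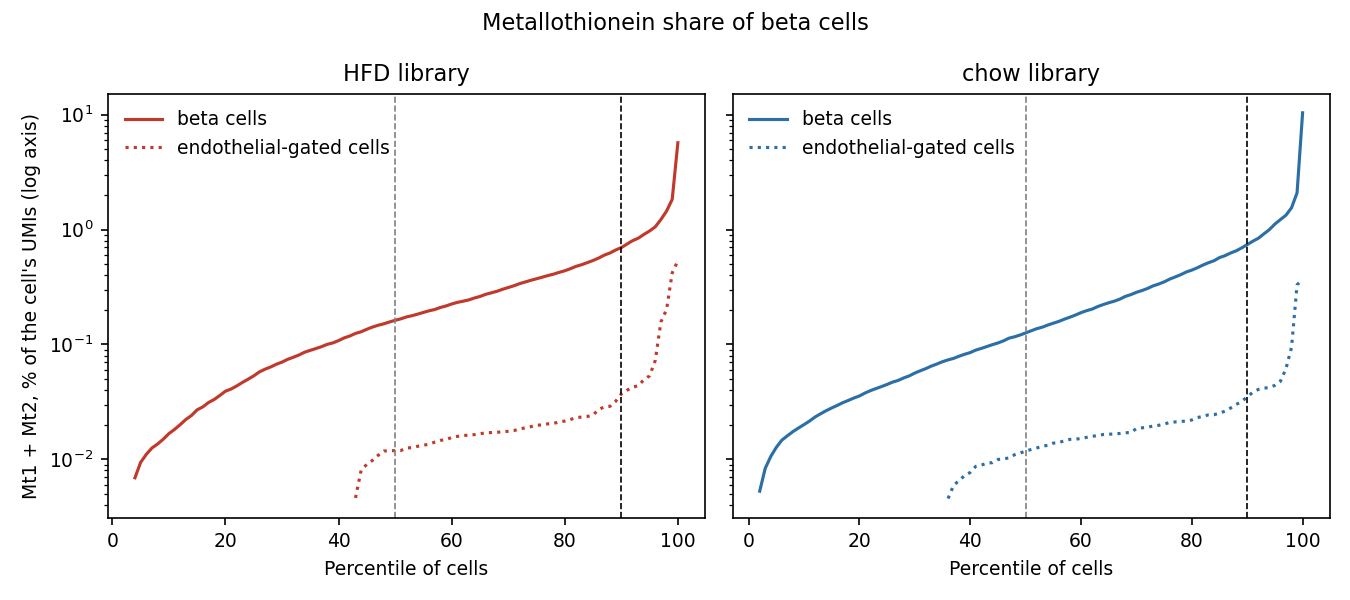
Share of Mt1 and Mt2 in a cell's UMIs (log axis; shares of 0 are not drawn) against the percentile of cells, for beta cells (solid) and endothelial-gated cells (dotted) of the HFD library (left) and the chow library (right). The dashed lines mark the 50th and 90th percentiles, and the beta cell curve crosses the 90th at 0.697% in the HFD and 0.740% in the chow library with no gap in the range.

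Endothelial cells carried little metallothionein RNA, and other islet cells carried more. Endothelial-gated cells, which carry at least 10 UMIs of endothelial markers, had a median metallothionein share of 0.0119% in the HFD library (128 cells) and 0.0118% in the chow library (182 cells). Their median depth was 6831 UMIs in the HFD and 7170 UMIs in the chow library, against 16946 and 14810 UMIs in beta cells. The 90th percentile of the share in these cells was 0.0371% for HFD and 0.035% for chow, far under the threshold for Mt-high beta cells. Alpha cells, which make glucagon, had a median of 0.0239% in the HFD library and 0.108% in the chow library. Delta cells, which make somatostatin, had 0.132% for HFD and 0.114% for chow, and macrophage-gated cells had 0.448% for HFD and 0.363% for chow.

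Mt1 and Mt2 were high in the same cells. Since these genes chose the cells, their levels are a description. Levels here are counts per 1000000 UMIs of a class of cells (CPM) from summed counts. Mt1 had 7215 CPM in Mt-high and 448 CPM in Mt-low cells of the HFD library, and 8064 CPM in Mt-high and 390 CPM in Mt-low cells of the chow library. Mt2 had 4832 CPM in Mt-high and 188 CPM in Mt-low cells of the HFD library, and 4976 CPM in Mt-high and 131 CPM in Mt-low cells of the chow library. The Mt1 to Mt2 ratio of the sums was 1.49 in Mt-high and 2.38 in Mt-low cells for HFD, and 1.62 in Mt-high and 2.98 in Mt-low cells for chow. Over beta cells, the shares of both genes had a Spearman correlation of 0.888 in the HFD library (3100 cells) and 0.863 in the chow library (4574 cells), with library and depth shared by the points. Where cells were chosen by Mt1 alone, Mt2 had 4545 CPM in the chosen cells and 219 CPM in the comparison cells for HFD, and 4794 CPM and 154 CPM for chow. Where one random part of each cell's UMIs chose the cells and the rest was measured, Mt1 had 7194 CPM in the chosen and 477 CPM in the comparison cells for HFD. For chow it had 7986 CPM and 419 CPM. In this setting 289 of 310 and 431 of 458 members were chosen again. That overlap is built in, since the choosing part also counted in the original choice. Both parts come from the same cells and are no independent check of the class. The brain-type Mt3 was scarce, at 4.51 CPM in Mt-high and 7.14 CPM in Mt-low cells for HFD and 3.89 CPM and 11 CPM for chow, and Mt4 had no UMI in these cells.

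A single threshold of 0.718%, the 90th percentile of both libraries' beta cells together, took 290 HFD beta cells (9.35%, exact 95% interval 8.35 to 10.4%) and 478 chow beta cells (10.5%, 9.58 to 11.4%). These intervals overlap, and intervals here and below cover counting error only.

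The Mt-high cells expressed other beta cell genes too, some of them at lower levels than the Mt-low cells. Iapp, the gene of the amyloid peptide released with insulin, had 58622 CPM in Mt-high and 61679 CPM in Mt-low cells for HFD, and 74227 CPM and 77813 CPM for chow. Pdx1, an identity factor gene, had 47.1 CPM in Mt-high and 55.9 CPM in Mt-low cells for HFD, and 46.0 CPM and 52.8 CPM for chow. Nkx6-1, another, had 108 CPM in Mt-high and 134 CPM in Mt-low cells for HFD, and 91.6 CPM and 133 CPM for chow. Depth was slightly lower in the members, with a median of 16012 UMIs in Mt-high and 17139 in Mt-low cells for HFD, and 13830 and 14914 for chow. The median share of mitochondrial UMIs was 3.05% in Mt-high and 3.28% in Mt-low cells for HFD, and 3.05% and 3.13% for chow. Insulin took a median of 51.2% in Mt-high and 53% in Mt-low cells for HFD, and 48.0% and 53.6% for chow.

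RNA of other cell types was present at low levels and differed between the classes. Summed alpha cell markers had 942 CPM in Mt-high and 1899 CPM in Mt-low cells for HFD and 1726 CPM and 2080 CPM for chow, led by glucagon. Delta markers had 288 CPM and 604 CPM for HFD and 625 CPM and 758 CPM for chow. Markers of pancreatic polypeptide (PP) cells ran the other way, at 7895 CPM in Mt-high and 5453 CPM in Mt-low cells for HFD and 7153 CPM and 3863 CPM for chow, and 5 cells held 67.6% of the Ppy counts of HFD and 45.7% of those of chow Mt-high cells. In HFD this direction turned with members at the 95th percentile, where the list median was -0.41, against 0.48 with members at the 90th, and Ppy stood at -0.95, against 0.54. The chow median of the delta list also turned, with alternatives between -0.75 and 0.91. Ppy made up at least 1% of UMIs in 14 HFD Mt-high cells (4.52%), against 44 Mt-low cells (2.84%), and in 23 chow Mt-high cells (5.02%), against 37 Mt-low cells (1.62%). Macrophage markers, 9 genes all detected, summed to 133 CPM in Mt-high and 45.5 CPM in Mt-low cells for HFD and 63.8 CPM and 27.0 CPM for chow, although only 1 HFD and 4 chow members carried 5 or more of these UMIs. The 7 ductal markers summed to 178 CPM and 170 CPM for HFD and 470 CPM and 279 CPM for chow, with Sox9 and Cftr at 0 in the members. Endothelial markers summed to 8.64 CPM in Mt-high and 20.5 CPM in Mt-low cells for HFD and 11.2 CPM and 33.0 CPM for chow, acinar markers to 10.0 CPM and 9.2 CPM for HFD and 31.2 CPM and 32.0 CPM for chow, mesenchymal markers to 1.18 CPM and 12.2 CPM for HFD and 2.84 CPM and 1.67 CPM for chow, and Schwann markers to 23.4 CPM and 16.1 CPM for HFD and 7.62 CPM and 7.57 CPM for chow. The part of these cells in the differences below was not tested, apart from the alternatives that leave out cells rich in other hormones, in macrophage UMIs or in doublet score.

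Few genes passed the fold between the classes, and those called in 1 library mostly had the same sign in the other. Each gene's log2 ratio of Mt-high over Mt-low CPM was taken relative to the median over all genes (0.04 for HFD, 0.12 for chow), and a relative ratio of at least 1.5-fold was called. Of 5870 genes with at least 10 CPM in HFD beta cells, 61 were higher (1.04%) and 65 lower (1.11%) in Mt-high cells. Of 5446 such genes in chow beta cells, 102 were higher (1.87%) and 72 lower (1.32%), or 166 higher and 39 lower without subtraction of the median. Among 5289 genes measured in both, 38 were higher (0.718%) and 25 lower (0.473%) in both libraries, and 0 were called in opposite directions. Of the 52 genes called higher in HFD and measured in both, 49 had the same sign and 38 were called in chow. Of the 90 called higher in chow and measured in both, 85 had the same sign and 38 were called in HFD. Of the 54 called lower in HFD, 47 had the same sign in chow, and of the 65 called lower in chow, 62 had the same sign in HFD. In both libraries 25 were called. The share of all 5289 genes with the same sign is not given here, so how far called genes differ from genes in general was not tested.

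**Figure D2:**
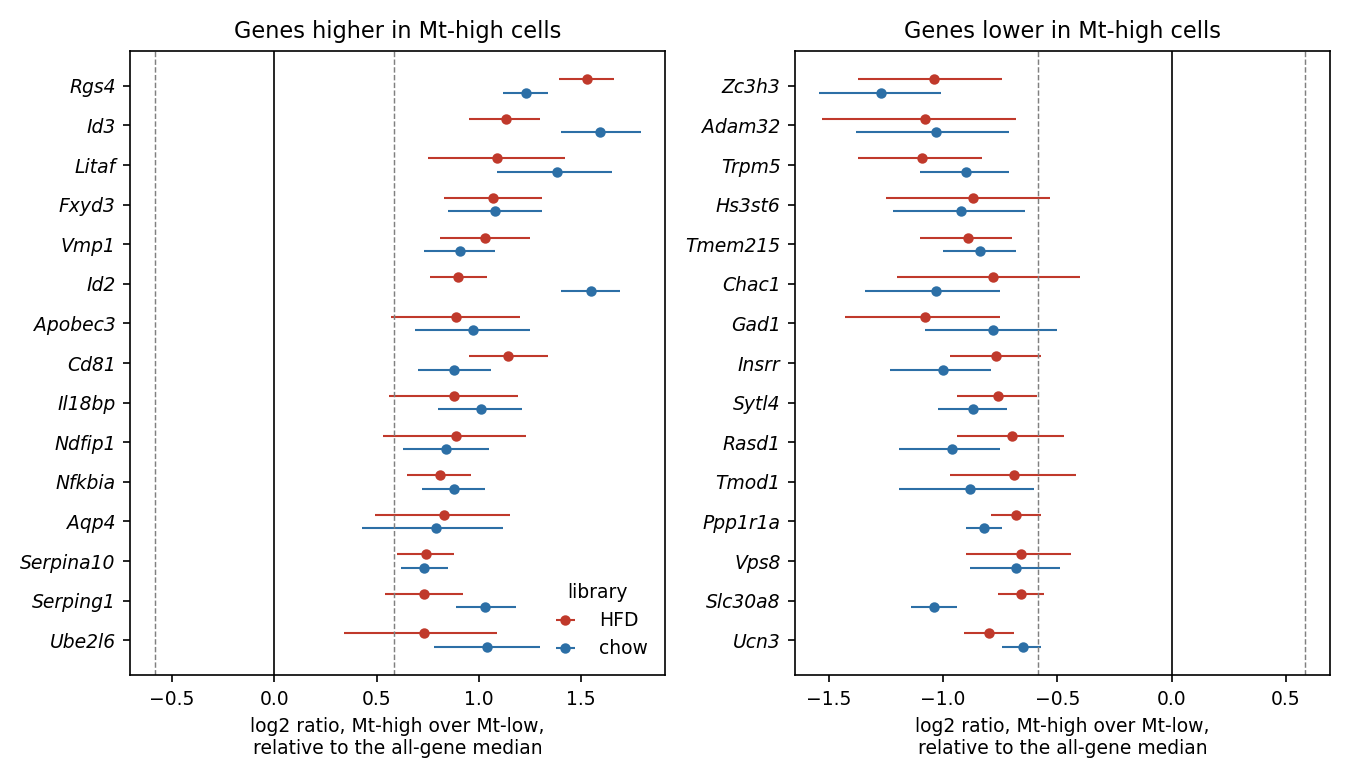
Relative log2 ratio of Mt-high over Mt-low cells for the 15 genes ranked highest (left) and lowest (right) by the smaller of their 2 ratios, HFD above chow in each row; bars are 95% counting intervals and dashed lines mark 1.5-fold. Rgs4 leads the higher genes at 1.53 in HFD and 1.23 in chow, and Zc3h3 leads the lower ones at -1.04 and -1.27.

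Rgs4 and the Id genes were among the highest of the genes called in both libraries. Rgs4, which encodes a brake on G protein signalling, had 143 CPM in Mt-high and 47.9 CPM in Mt-low cells for HFD, and 147 CPM in Mt-high and 57.7 CPM in Mt-low cells for chow (relative log2 ratios 1.53 and 1.23). Both Mt-high sums stood above both Mt-low sums, with the intervals apart. Id2 and Id3 encode inhibitors of helix-loop-helix transcription factors that act downstream of bone morphogenetic proteins. Id2 had 110 CPM in Mt-high and 56.8 CPM in Mt-low cells for HFD, and 96.1 CPM in Mt-high and 30.3 CPM in Mt-low cells for chow (0.90 and 1.55). Id3 had 76.6 CPM in Mt-high and 33.9 CPM in Mt-low cells for HFD, and 52.0 CPM in Mt-high and 15.9 CPM in Mt-low cells for chow (1.13 and 1.59). For both Id genes every Mt-low sum lay under the Mt-high sum of its own library, and the HFD Mt-low sum of Id2 (56.8 CPM) was above the chow one (30.3 CPM).

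Other genes of the higher set encode surface or secreted proteins. Cd81, a tetraspanin used as a mark of immature beta cells, had 61.4 CPM in Mt-high and 27.0 CPM in Mt-low cells for HFD, and 53.6 CPM in Mt-high and 26.9 CPM in Mt-low cells for chow (1.14 and 0.88). Serping1, the C1 inhibitor of the complement cascade, had 59.5 CPM in Mt-high and 34.7 CPM in Mt-low cells for HFD, and 80.0 CPM in Mt-high and 36.0 CPM in Mt-low cells for chow (0.73 and 1.03). Serpina10, an inhibitor of coagulation proteases, stood at 0.74 for HFD and 0.73 for chow. Il18bp, a secreted decoy for interleukin 18, had 22.8 CPM in Mt-high and 12 CPM in Mt-low cells for HFD, and 42.1 CPM in Mt-high and 19.3 CPM in Mt-low cells for chow (0.88 and 1.01). Fxyd3, a regulator of the sodium pump, stood at 1.07 for HFD and 1.08 for chow, and the water channel gene Aqp4 at 0.83 and 0.79.

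The rest of the set lay inside the cell. Nfkbia, which encodes the NF-kB inhibitor and is itself induced by NF-kB, had 91.5 CPM in Mt-high and 50.7 CPM in Mt-low cells for HFD, and 69.0 CPM in Mt-high and 34.7 CPM in Mt-low cells for chow (0.81 and 0.88). Litaf, an endosomal protein gene, stood at 1.09 for HFD and 1.38 for chow. Vmp1, an endoplasmic reticulum protein needed for autophagy, stood at 1.03 and 0.91. The antiviral deaminase gene Apobec3 stood at 0.89 and 0.97, Ube2l6, the conjugating enzyme for ISG15, at 0.73 and 1.04, and Ndfip1, an adaptor of ubiquitin ligases, at 0.89 and 0.84. All 15 genes were above the all-gene median by more than 1.5-fold in both libraries, which is how they were ranked.

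Several abundant genes reached these ratios but rested on few cells, since 5 cells held over 25% of their Mt-high counts in at least 1 library. Crybb3, a crystallin gene, had 195 CPM in Mt-high and 65.3 CPM in Mt-low cells for HFD, and 502 CPM in Mt-high and 164 CPM in Mt-low cells for chow (1.53 and 1.49). Its top 5 cells held 36.6% of the HFD and 23.7% of the chow Mt-high counts. Spp1, which encodes the secreted phosphoprotein osteopontin, had 34.5 CPM in Mt-high and 14.5 CPM in Mt-low cells for HFD, and 236 CPM in Mt-high and 45.7 CPM in Mt-low cells for chow, with 57.4% and 66.1% of the Mt-high counts in 5 cells. Apoe, an apolipoprotein gene strong in macrophages, had 54.6 CPM in Mt-high and 22.4 CPM in Mt-low cells for HFD, and 29.3 CPM in Mt-high and 9.44 CPM in Mt-low cells for chow (1.24 in HFD, which became -0.03 among cells with an insulin share of at least 40%). In the same group were Ctsz (0.79 for HFD, 0.72 for chow; 0.33 in HFD without cells with macrophage UMIs and 0.28 in chow thinned to 4000 UMIs) and Hist3h2ba (0.86 and 0.79). Cox6a2, a muscle-type cytochrome c oxidase subunit, was lower, at 8.44 CPM in Mt-high and 16.4 CPM in Mt-low cells for HFD and 18.7 CPM in Mt-high and 66.3 CPM in Mt-low cells for chow (-0.99 and -1.94).

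The lower set held 3 genes of the beta cell identity and maturity list, Slc30a8, Ucn3 and Trpm5. Slc30a8, the gene of the granule zinc transporter ZnT8, had 178 CPM in Mt-high and 273 CPM in Mt-low cells for HFD, and 128 CPM in Mt-high and 242 CPM in Mt-low cells for chow (-0.66 and -1.04). Ucn3, a peptide gene of mature beta cells, had 138 CPM in Mt-high and 233 CPM in Mt-low cells for HFD, and 188 CPM in Mt-high and 271 CPM in Mt-low cells for chow (-0.80 and -0.65). Trpm5, a calcium-activated cation channel gene that aids insulin release, had 25.3 CPM in Mt-high and 52.4 CPM in Mt-low cells for HFD, and 34.8 CPM in Mt-high and 59.9 CPM in Mt-low cells for chow (-1.09 and -0.90). All 3 genes were lower in the Mt-high than in the Mt-low sum of each library, without overlap of the intervals.

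Other lower genes act in signalling and secretion. Insrr, an alkali-sensing receptor of the insulin receptor family, had 46.1 CPM in Mt-high and 76.2 CPM in Mt-low cells for HFD, and 28.2 CPM in Mt-high and 52.2 CPM in Mt-low cells for chow (-0.77 and -1.0). Sytl4, which encodes the granule protein granuphilin, had 61.2 CPM in Mt-high and 101 CPM in Mt-low cells for HFD, and 59.6 CPM in Mt-high and 100 CPM in Mt-low cells for chow (-0.76 and -0.87). Ppp1r1a, a protein phosphatase inhibitor abundant in beta cells, had 150 CPM in Mt-high and 232 CPM in Mt-low cells for HFD, and 220 CPM in Mt-high and 358 CPM in Mt-low cells for chow (-0.68 and -0.82). Gad1, the enzyme that makes the transmitter GABA, stood at -1.08 for HFD and -0.78 for chow, and Rasd1, a glucocorticoid-inducible small GTPase, at -0.70 and -0.96. Chac1, which degrades glutathione and is a target of the integrated stress response, stood at -0.78 and -1.03. Zc3h3 (-1.04 and -1.27), Adam32 (-1.08 and -1.03), the sulfotransferase gene Hs3st6 (-0.87 and -0.92), Tmem215 (-0.89 and -0.84), the actin-capping gene Tmod1 (-0.69 and -0.88) and Vps8 (-0.66 and -0.68), an endosomal tethering subunit, completed the set.

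The course over the whole range of the metallothionein share differed between genes, gradual in some and mostly in the top bins in others. Beta cells of each library were put into 10 bins of equal size by the share, and each bin was summed. Trpm5 had 63.1 CPM in bin 1, 43.5 CPM in bin 5 and 25.3 CPM in bin 10 of the HFD library, and 75.7, 52.6 and 34.9 CPM in the same bins of the chow library, where each of the 9 steps between neighbouring bins was downward. Cd81 had 11.6 CPM in bin 1, 41.0 CPM in bin 5 and 61.4 CPM in bin 10 of the HFD library, and 21.8, 32.3 and 53.8 CPM in chow. Bin 5 of both genes lay between the ends in both libraries, but not every bin did. Cd81 had 62.7 CPM in bin 9 of HFD, and 53.4, 57.3 and 52.4 CPM in bins 7, 8 and 9 of chow, where it was flat over the top bins. Trpm5 had 64.9 CPM in bin 2 of HFD. Rgs4 had no steady rise over the lower bins of the HFD library, with 40.8 CPM in bin 1, 56.4 CPM in bin 4 and 42.3 CPM in bin 5. It then had 106 CPM in bin 9 and 143 CPM in bin 10. In chow it had 52.5 CPM in bin 1, 69.9 CPM in bin 5 and 147 CPM in bin 10. Nfkbia had 48.0, 50.1, 62.3 and 91.5 CPM in bins 1, 5, 9 and 10 of the HFD library, so that most of its difference lay in the topmost cells. Tmod1 had 38.8, 41.0, 37.6 and 24.3 CPM in the same bins of the HFD library, and was lower in the last bin alone. The Id genes of the HFD library were highest in a bin outside the members, with an interval that overlapped that of bin 10. Id3 had 79.3 CPM in bin 8, 64.5 CPM in bin 9 and 76.6 CPM in bin 10. Id2 had 120 CPM in bin 9 and 110 CPM in bin 10. In chow both were highest in bin 10.

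**Figure D3:**
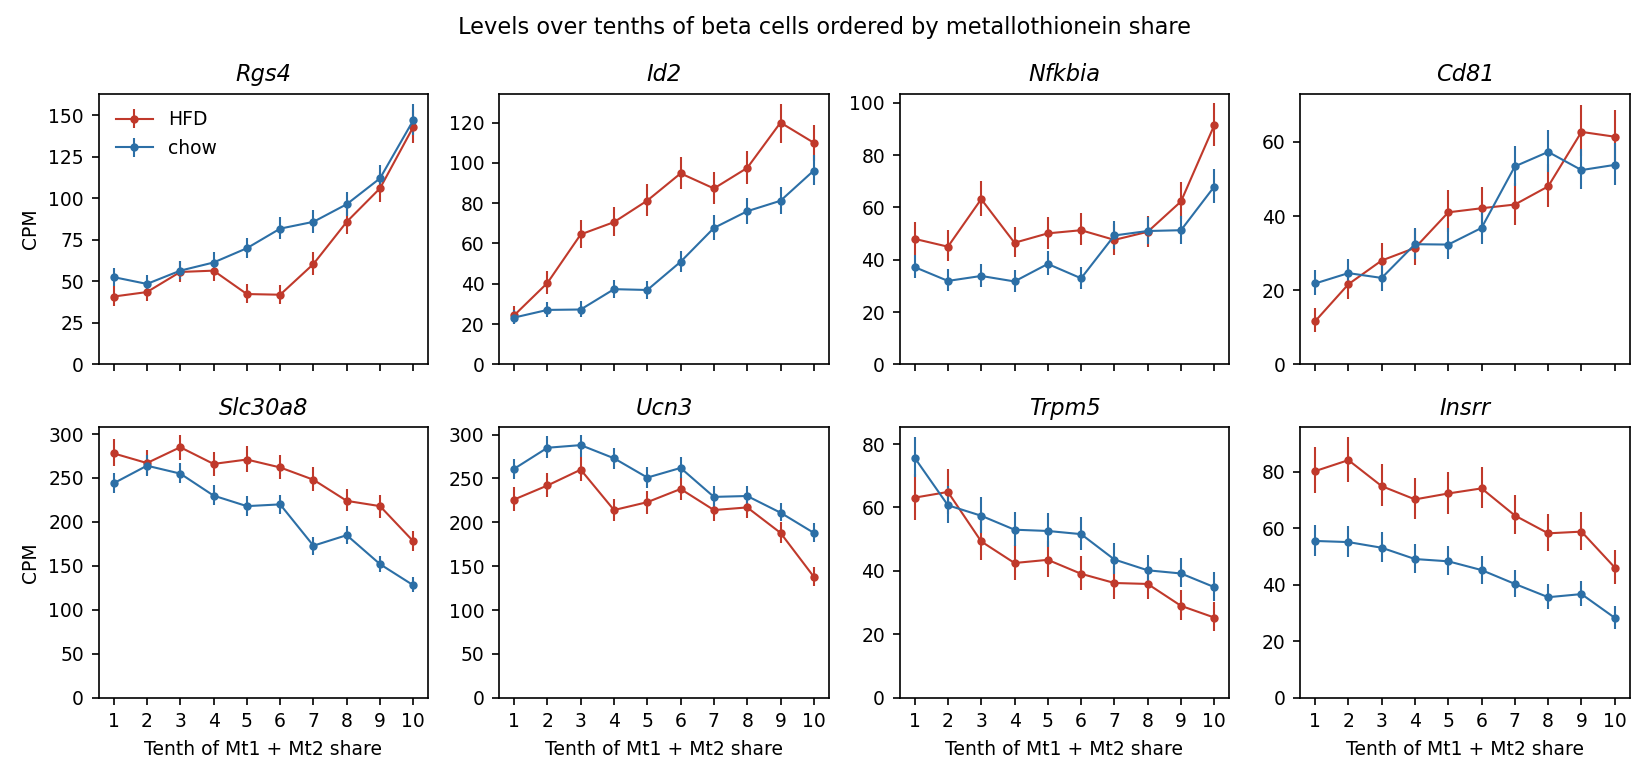
CPM of 8 genes in 10 equal bins of beta cells ordered by the Mt1 and Mt2 share (bin 1 lowest), for the HFD library (red) and the chow library (blue); bars are 95% counting intervals. Trpm5 declines at each step in chow and at 7 of 9 steps in HFD, with 25.3 CPM in bin 10 of HFD and 34.9 CPM in bin 10 of chow, while Nfkbia in HFD is near 50.1 CPM in bin 5 and at 91.5 CPM in bin 10.

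Some of the genes also differed in the share of cells with a UMI at equal depth, and others did not. With each cell thinned to 4000 UMIs, Ucn3 was detected in 37.1% of HFD Mt-high and 54.8% of HFD Mt-low cells, and in 48.9% of chow Mt-high and 60.4% of chow Mt-low cells. Endothelial-gated cells, which should lack it, had 2.34% in HFD and 6.15% in chow. Slc30a8 was detected in 50% of HFD Mt-high and 65.5% of HFD Mt-low cells, and in 39.0% of chow Mt-high and 60.0% of chow Mt-low cells, against 5.47% and 5.59% of endothelial-gated cells. Rgs4 was detected in 27.4% of HFD Mt-high and 13.7% of HFD Mt-low cells, and in 34.1% of chow Mt-high and 15.6% of chow Mt-low cells, against 0.781% and 3.91% of endothelial-gated cells. For Rgs4, then, most Mt-high cells had no UMI at this depth. Other higher genes were common in endothelial-gated cells. Id3 was detected in 96.1% for HFD and 96.1% for chow, Cd81 in 92.2% and 89.4%, Nfkbia in 92.2% and 90.5% and Litaf in 78.9% and 83.2%. Serpina10 (3.91% and 4.47%), Serping1, Fxyd3, Aqp4 and Il18bp were rare there. Il18bp in HFD ran against its CPM, with a UMI in 4.84% of Mt-high (2.73 to 7.86%) and 6.0% of Mt-low cells (4.87 to 7.3%), so no order is read from that share, while in chow it was detected in 16.1% and 6.49%. Chac1 was detected in 5.48% of HFD Mt-high and 6.9% of HFD Mt-low cells, with overlapping intervals, and both shares were under the 12.5% of endothelial-gated cells. No HFD member and 4 chow members were left out for being shallower.

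Among zinc transport genes, 1 exporter was called lower and 1 importer higher in both libraries. Of the 10 exporters of the Slc30 family, which take zinc out of the cytosol, 4 passed the filter, and 1, Slc30a8, was called lower in both libraries, as were 0.473% of all genes measured in both. The plasma membrane exporter Slc30a1, a known MTF1 target named here after its values were seen, fell under the filter but had 10.6 CPM (7.96 to 13.8) in Mt-high and 4.96 CPM (4.15 to 5.89) in Mt-low cells for HFD, and 5.83 CPM (4.14 to 7.97) in Mt-high and 2.81 CPM (2.29 to 3.42) in Mt-low cells for chow. Over the bins of chow, Slc30a1 had 6.73 CPM in bin 6, 6.81 CPM in bin 7 and 5.84 CPM in bin 10, so it did not rise over the upper bins there. The promoter window of Slc30a1 held 2 metal response element cores, and that of Slc39a1 held 0. The other exporters kept, Slc30a5 (-0.17 for HFD, -0.23 for chow), Slc30a7 (0.28 and -0.07) and Slc30a9 (0.02 and 0.05), were near the all-gene median. Of 14 importers of the Slc39 family, which bring zinc into the cytosol, 5 passed the filter and 1 was called higher in both libraries, as were 0.718% of all genes measured in both. That was Slc39a1, with 32.8 CPM in Mt-high and 20.9 CPM in Mt-low cells for HFD, and 27.9 CPM in Mt-high and 17.0 CPM in Mt-low cells for chow (0.61 and 0.60). This call lay close to the fold and ended under several alternatives, with Slc39a1 between 0.48 and 0.76 in HFD and between 0.51 and 0.83 in chow. Slc39a6 stood at 0.01 for HFD and 0.45 for chow, Slc39a3 at 0.00 and 0.16, Slc39a7 at -0.16 and -0.08 and Slc39a9 at -0.28 and -0.07. Mtf1 itself, the zinc sensor, had 17.7 CPM in Mt-high and 19.7 CPM in Mt-low cells for HFD, and 16.1 CPM and 15.8 CPM for chow, within counting error.

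Genes for copper and iron handling showed small shifts. Of 16 listed genes 11 were kept for HFD and 12 for chow, none was called, and the list medians were -0.01 and 0.00. The ferritin light chain Ftl1, which stores iron, had 2755 CPM in Mt-high and 2279 CPM in Mt-low cells for HFD, and 2974 CPM and 2203 CPM for chow (0.23 and 0.32). The copper chaperone Atox1 stood at 0.23 and 0.52, and the copper pump Atp7a at -0.56 and -0.41.

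Metal response element cores were common near the starts of the higher genes. Of the 15 higher genes 11 had a promoter window in the table, and 8 of these (72.7%) held at least 1 core, against 28.2% of 27025 genes with a window. By window, 8 of 14 (57.1%) held a core, against 25.7% of all windows. Those were Id2 and Id3 with 2 each, and Vmp1, Apobec3, Cd81, Il18bp, Nfkbia and Ube2l6 with 1 each. Rgs4, Litaf and Fxyd3 held none. Of the 15 lower genes 8 had a window and 3 (37.5%) held a core. The antioxidant response element core was held by 3 of the 11 higher genes (27.3%), Vmp1, Id2 and Nfkbia, against 14.0% of all genes. With so few genes, no difference from genes in general is read from this. By window, 5 of 14 (35.7%) held this core, against 12.4% of all windows. Vmp1 alone has 3 windows, so windows are not separate genes. Of the 8 lower genes with a window 0 held this core. Such counts describe letters in these windows, and GC content of the windows was not compared.

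Within the beta cell identity and maturity list, the genes called lower in both libraries encode a channel, transporters, an enzyme and a peptide, and most transcription factor genes were not called. Of 22 listed genes 19 were kept for HFD, with a median relative ratio of -0.31, 0 called higher and 5 called lower. For chow 18 were kept, with a median of -0.31, 0 higher and 6 lower. Among all genes 1.11% were called lower in HFD, 1.32% in chow and 0.473% in both. The 5 lower in both were Trpm5, Ucn3, Slc30a8, Slc2a2 and G6pc2. Slc2a2, the glucose transporter GLUT2, had 65.6 CPM in Mt-high and 98.8 CPM in Mt-low cells for HFD, and 38.7 CPM in Mt-high and 93.5 CPM in Mt-low cells for chow (-0.63 and -1.39). G6pc2, the islet glucose-6-phosphatase, had 276 CPM in Mt-high and 409 CPM in Mt-low cells for HFD, and 313 CPM in Mt-high and 440 CPM in Mt-low cells for chow (-0.61 and -0.61). Some of these calls ended under alternatives, where G6pc2 reached -0.57 in HFD and -0.49 in chow, Slc2a2 -0.53 in HFD and Ucn3 -0.53 in chow. Nkx6-1, a transcription factor of beta cell identity, was the sixth in chow (-0.65) and stood at -0.35 in HFD. Other factor genes were not called, with Isl1 at 0.48 for HFD and 0.35 for chow, Pax6 at -0.04 and 0.03 and Pdx1 at -0.29 and -0.31. The ATP-sensitive potassium channel subunit Abcc8 stood at 0.16 and 0.11. Of the genes of immature or dedifferentiated beta cells, Cd81 was called higher in both, as given above. Aldh1a3, a marker of dedifferentiation, had no UMI in HFD Mt-high cells, which allows up to 0.724 CPM by the exact interval, and 2.29 CPM in Mt-low cells, against 0.299 CPM and 0.167 CPM in chow.

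**Figure D4:**
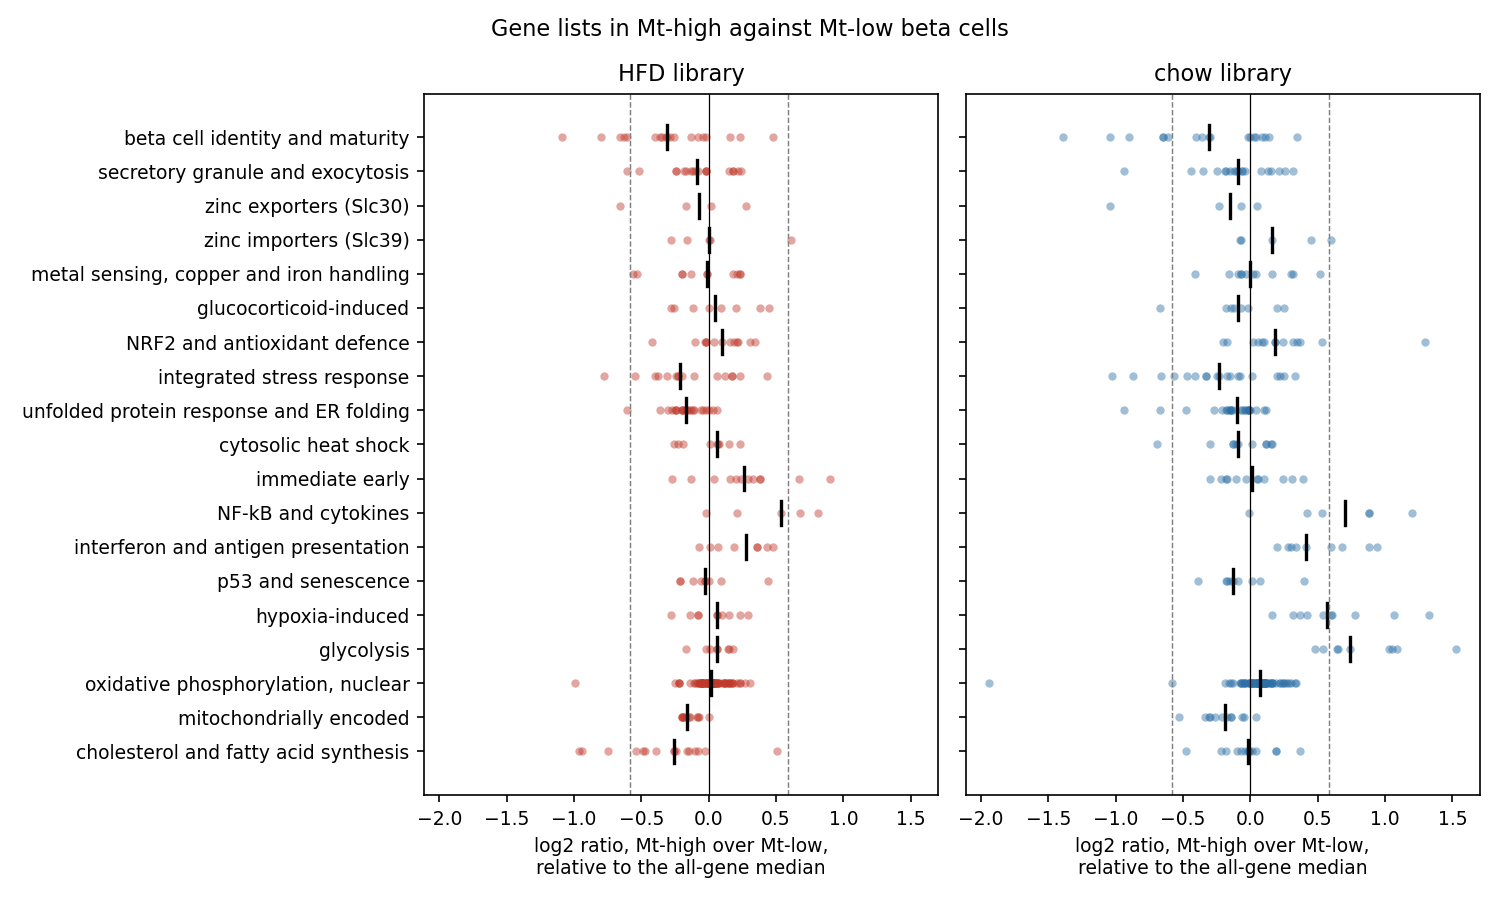
Relative log2 ratios of Mt-high over Mt-low cells for the kept genes of 19 lists (dots), with list medians (black bars), in the HFD library (left) and the chow library (right); dashed lines mark 1.5-fold. Beta cell identity has a median of -0.31 in both, while glycolysis and hypoxia-induced genes have medians of 0.06 and 0.06 in HFD and 0.74 and 0.57 in chow.

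The NF-kB and cytokine list had a median above that of all genes in both libraries. Of 19 NF-kB and cytokine genes 5 were kept for HFD (median 0.54, 2 called higher) and 6 for chow (median 0.70, 3 called higher). For this list and those below, the share of all genes called higher was 1.04% in HFD and 1.87% in chow. Nfkbia and Socs3 were called in both. Socs3, a feedback inhibitor of cytokine receptors, had 19.0 CPM in Mt-high and 11.5 CPM in Mt-low cells for HFD, and 21.4 CPM in Mt-high and 10.7 CPM in Mt-low cells for chow (0.68 and 0.88). Lcn2 was the third in chow, at 97.0 CPM in Mt-high and 38.8 CPM in Mt-low cells, but 5 cells held 91.7% of its Mt-high counts. Interferon and antigen presentation genes had a median of 0.27 in HFD (8 kept, 0 called) and 0.41 in chow (9 kept, 4 called higher). Psmb8, a subunit of the immunoproteasome, had 25.3 CPM in Mt-high and 19.2 CPM in Mt-low cells for HFD, and 59.0 CPM in Mt-high and 29.7 CPM in Mt-low cells for chow (0.36 and 0.88). Immediate early genes had a median of 0.27 in HFD, with Jun (0.67, at lowest 0.57 under alternatives) and Zfp36 (0.90, at lowest 0.51) called among 12, and of 0.01 in chow, with none called.

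The other stress lists had medians closer to that of all genes. The unfolded protein response and endoplasmic reticulum folding list had a median of -0.17 in HFD (21 of 23 genes below the all-gene median) and -0.10 in chow (21 of 24 below), which became 0.02 without subtraction of the all-gene median. Its member Ero1lb, an oxidase for proinsulin folding, had 178 CPM in Mt-high and 263 CPM in Mt-low cells for HFD, and 141 CPM in Mt-high and 248 CPM in Mt-low cells for chow (-0.61 and -0.94, with HFD reaching -0.54 under alternatives). The integrated stress response had a median of -0.21 in HFD (16 kept, 1 lower) and -0.23 in chow (19 kept, 3 lower). Glucocorticoid-induced genes, metallothioneins aside, had medians of 0.05 in HFD and -0.10 in chow. Of 8 kept in each library, 5 in HFD and 2 in chow lay above the all-gene median. Tsc22d3, a strong target of the hormone, stood at -0.28 and -0.67 and Fkbp5 at -0.26 and -0.07. Errfi1 ran the other way, between 0.37 and 0.56 in HFD and between 0.11 and 0.43 in chow under alternatives. Nr3c1 did so too, between 0.12 and 0.28 in HFD and between 0.05 and 0.38 in chow. Antioxidant genes under NRF2 had medians of 0.10 and 0.18 with 0 called in HFD and 1 in chow, cytosolic heat shock genes 0.06 and -0.09, and p53 and senescence genes -0.03 and -0.13. Nuclear genes of oxidative phosphorylation had medians of 0.02 for HFD and 0.07 for chow over 75 genes, mitochondrially encoded genes -0.16 and -0.19 over 12, and secretory granule and exocytosis genes -0.09 and -0.09. Cell cycle genes were too scarce, with 2 of 15 kept. Cholesterol and fatty acid synthesis genes had a median of -0.26 in HFD with 3 of 16 called lower, and -0.02 in chow with 0 of 14. The share of all genes called lower was 1.11% in HFD and 1.32% in chow.

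Hypoxia-linked and glycolytic genes were higher in the Mt-high cells of the chow library and near the all-gene median in those of the HFD library. Of 15 glycolysis genes 8 were kept for HFD (median 0.06, 0 called) and 9 for chow (median 0.74, 7 called higher). Among all genes 1.04% were called higher in HFD and 1.87% in chow. Tpi1, triose phosphate isomerase, had 62.0 CPM in Mt-high and 54.4 CPM in Mt-low cells for HFD, and 154 CPM in Mt-high and 69.2 CPM in Mt-low cells for chow (0.15 and 1.03). Eno1, enolase, had 22.4 CPM in Mt-high and 19.7 CPM in Mt-low cells for HFD, and 61.4 CPM in Mt-high and 26.6 CPM in Mt-low cells for chow (0.14 and 1.09). Pfkl, a phosphofructokinase subunit, stood at -0.17 and 1.05, Pgam1 at -0.02 and 0.65, Gpi1 at 0.06 and 0.64, Aldoa at 0.06 and 0.54 and Pkm at 0.01 and 0.48. Gapdh stood at 0.18 for HFD and 0.74 for chow, and its reads may be shared with its many pseudogenes. Of 18 hypoxia-induced genes 10 were kept in each library, with 0 called in HFD (median 0.06) and 5 called higher in chow (median 0.57). This list and the glycolysis list share Aldoa, Pgk1 and Ldha, so they are not separate. Bnip3, a mitophagy receptor induced by HIF1, had 32.2 CPM in Mt-high and 29.2 CPM in Mt-low cells for HFD, and 77.7 CPM in Mt-high and 28.5 CPM in Mt-low cells for chow (0.10 and 1.33). P4ha1, a collagen prolyl hydroxylase, stood at 0.23 for HFD and 1.07 for chow. The Mt-low sums of Bnip3 and P4ha1 were alike in both libraries, and only the chow Mt-high sum stood above the other 3 sums. The difference between the libraries was not tested.

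**Figure D5:**
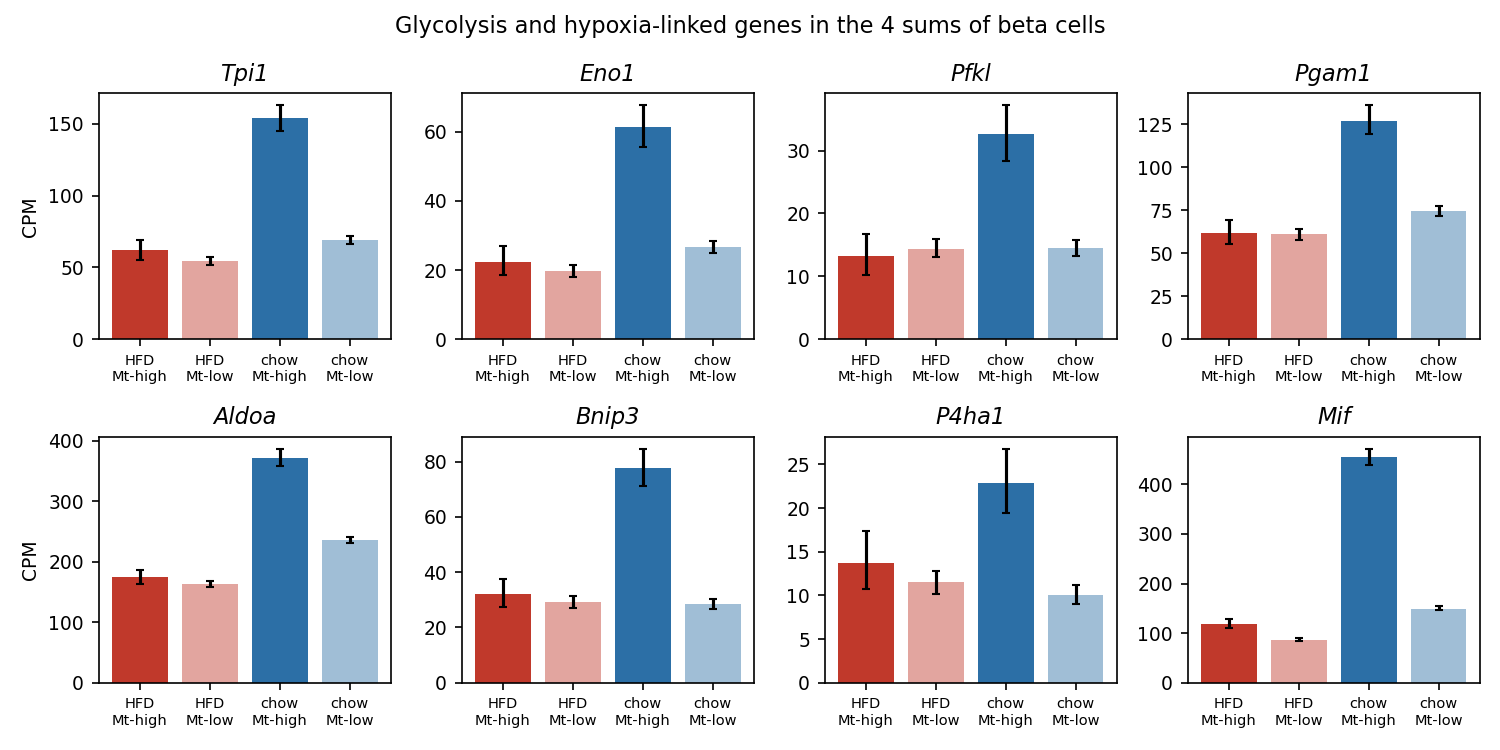
CPM of 8 glycolysis and hypoxia-linked genes in the 4 sums of beta cells, HFD Mt-high, HFD Mt-low, chow Mt-high and chow Mt-low from left to right; error bars are exact Poisson 95% intervals. Bnip3 stands at 77.7 CPM in chow Mt-high cells, and between 28.5 and 32.2 CPM in the other 3 sums.

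Diet within the Mt-high cells was also set out as HFD over chow, again relative to the median of all genes. Of 6027 genes with at least 10 CPM in either library's beta cells, 310 were higher (5.14%) and 639 lower (10.6%) in HFD than in chow Mt-high cells. In Mt-low cells 104 were higher (1.73%) and 539 lower (8.94%), but the Mt-high sums held 5094254 UMIs for HFD and 6691606 UMIs for chow, against 26195498 and 35916766 in Mt-low cells, so the Mt-high ratios carry more counting error. Mif, which encodes the secreted factor MIF and is a hypoxia target, had 119 CPM in Mt-high and 87.2 CPM in Mt-low cells for HFD, and 455 CPM in Mt-high and 149 CPM in Mt-low cells for chow. Its relative ratio of HFD over chow was -1.99 in Mt-high and -0.93 in Mt-low cells. Slc2a2 stood at 0.70 in Mt-high and -0.07 in Mt-low cells in the same comparison, Bnip3 at -1.33 and -0.12, and Pfkl at -1.36 and -0.17. The other genes ranked by this difference were Dapl1 (0.55 and -0.25), Rlim (0.89 and 0.09), Cited2 (0.17 and -0.60), the thyroid hormone and amino acid transporter gene Slc16a10 (0.63 and -0.11) and Foxj3 (0.85 and 0.13) on the higher side. On the lower side were glucagon, Gcg (-1.04 in Mt-high and -0.11 in Mt-low cells), Fdps (-1.71 and -0.43) and Usp35 (-1.04 and -0.01). Mt1 stood at -0.22 and 0.05, and Mt2 at -0.10 and 0.37.

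The same contrast was taken in other endocrine cells by the same percentiles of their own metallothionein share. Of the 15 higher genes, 13 were kept in HFD alpha cells (41 high, 201 low) and 7 had the same direction, and 14 were kept in chow alpha cells (78 high, 386 low) with 8 in the same direction. In delta cells 9 of 14 had the same direction for HFD (28 high, 139 low) and 10 of 14 for chow (39 high, 192 low). Of the lower genes, 3 of 5 for HFD and 4 of 7 for chow had the same direction in alpha cells, and 5 of 7 and 3 of 7 in delta cells. The share of all genes with these directions is not given here. Since ratios are relative to the median over genes, genes in general lie about equally on both sides. No shared pattern is read from these counts. Slc30a8 is also expressed in alpha cells, where it had 285 CPM in the high and 381 CPM in the low class for HFD, and 201 CPM and 368 CPM for chow (-0.52 and -0.88). Rgs4 differed between the libraries there, at 115 CPM in the high and 65.7 CPM in the low class for HFD and 138 CPM and 150 CPM for chow. These classes hold few cells, and the difference from beta cells was not tested.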

How the data were processed

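The authors deposited raw UMI counts, unnormalized whole numbers for each gene in each barcode, from 10x Genomics 3' v2 libraries (per the labels). Per the submitters' processing notes, Cell Ranger 2.1.0 was used. Which genome build, annotation and cell-calling rule it ran with is not given in the sources used here. The smallest barcode held 4017 UMIs (HFD) and 3846 UMIs (chow); 145 HFD and 122 chow barcodes had under 500 genes or over 10% mitochondrial UMIs and were removed. Each class of cells in a library was summed gene by gene with Python 3.11.15 and scipy 1.17.1, scaled to CPM with exact Poisson 95% intervals, and compared as log2 ratios with 0.5 counts added, minus the median over genes with at least 10 CPM in all beta cells of the library. Mt1, Mt2, Ins1 and Ins2, which chose the cells, were left out of counts of called genes. For shares of cells the exact Clopper-Pearson interval is given. The ratio step was checked on simulated counts. Doublets were scored with Scrublet in scanpy 1.11.5, whose automatic threshold marked 1 HFD barcode (0.023%) and 3 chow barcodes (0.047%) and so had not worked; all cells were kept, and an alternative left out scores above the 95th percentile (194 HFD barcodes, 4.42%, with 9 members, and 278 chow barcodes, 4.35%, with 14 members).

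The members and the 31 gene lists were chosen with earlier results of these data known. Genes were named by a rule: the 15 highest and 15 lowest by the smaller of both libraries' ratios, with at least 20 CPM in 1 of the 4 sums and without predicted genes and genes of which 5 cells held over 25% of the Mt-high counts in a library; the kept Slc30 and Slc39 genes; up to 4 members by level and 2 by each extreme ratio of every list; and the 6 highest and 6 lowest differences between the diet ratios of both classes. Promoter windows are those of RefSeq, matched by symbol. Alternatives changed scaling (TMM from edgeR 4.0.16, median of ratios, none), the filter, the percentiles, the choosing gene, depth, insulin share, other hormones, doublets and, added after the data were seen, macrophage UMIs. Mitochondrial shares, mean cell shares and 1 shared threshold were varied too. Some listed genes are not reported here.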

Additional observations from a re-analysis of the deposited data

Results flagged for a closer look

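For 4 genes named by the diet rule, the relative log2 ratio of Mt-high over Mt-low cells had opposite signs in the libraries and was at least 0.25 in size in both; the difference was not tested. Fdps, which encodes farnesyl diphosphate synthase of the sterol pathway, stood at -0.94 in HFD, with 16.3 CPM in Mt-high and 30.5 CPM in Mt-low cells, and at 0.37 in chow, with 51.6 CPM in Mt-high and 36.9 CPM in Mt-low cells. Usp35, a deubiquitinase gene, stood at -0.62 in HFD (10.8 CPM in Mt-high, 16.2 CPM in Mt-low cells) and 0.43 in chow (21.4 CPM in Mt-high, 14.7 CPM in Mt-low cells). Rlim, a ubiquitin ligase gene, stood at 0.49 in HFD (32.0 CPM in Mt-high, 22.1 CPM in Mt-low cells) and -0.28 in chow (16.6 CPM in Mt-high, 18.7 CPM in Mt-low cells). Foxj3, a forkhead factor gene, stood at 0.37 in HFD (21.4 CPM in Mt-high, 16.1 CPM in Mt-low cells) and -0.34 in chow (11.4 CPM in Mt-high, 13.3 CPM in Mt-low cells).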

How the results depend on the processing

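No paired analysis was possible because each diet has 1 library and no number ties a cell to a mouse. Over 19 alternatives (1 added after the data were seen), every available ratio of the 30 top-ranked genes kept its sign, and 272 of 274 (higher, HFD), 268 of 270 (higher, chow), 262 of 276 (lower, HFD) and 274 of 277 (lower, chow) stayed past 1.5-fold. Past the fold, 2 values of named genes changed direction: Rbp4 in HFD (-0.74) stood at 0.34 without cells over 2% other hormones, and Apoe in HFD (1.24) at -0.03 with an insulin share of at least 40%. The HFD median of the macrophage list (2.19) stood at -0.45 with that insulin share and at -0.32 without cells with macrophage UMIs. Other values of named genes left their counting interval in 650 cases, and list medians moved in 97. Counts of called genes followed the filter and the depth. At 5 CPM, 173 genes were higher and 158 lower in HFD, 183 and 143 in chow, and 69 and 47 in both. At 50 CPM these were 11 and 17, 23 and 21, and 9 and 11. With no filter they were 4032 and 1504, 4170 and 1492, and 1907 and 397. Without subtraction of the all-gene median chow had 166 higher and 39 lower. With members at the 95th percentile, HFD had 130 and 181, chow 148 lower, and 46 were lower in both. With comparison cells at the 25th percentile, HFD had 112 and 103. Where 50% of each cell's UMIs chose the cells, HFD had 105 and 147 and chow 124 lower. Thinned to 4000 UMIs, HFD had 232 and 314, chow 180 and 197, and 38 were lower in both. Not all original calls were among these. In HFD 43 of 61 higher and 33 of 65 lower genes were called again, and in chow 84 of 102 and 52 of 72. Of the genes called in both libraries, 26 of 38 higher and 15 of 25 lower ones were called again. Genes higher in HFD than in chow were 679 in Mt-high and 205 in Mt-low cells at this depth. Settings with smaller sums hold more counting error; other causes were not tested. The 1 library per diet limits all statements on diet.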

Other observations

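Further genes were called in the same direction in both libraries and are named here after their values were seen. Neat1, a long noncoding RNA of nuclear paraspeckles, had 207 CPM in Mt-high and 126 CPM in Mt-low cells for HFD, and 230 CPM in Mt-high and 132 CPM in Mt-low cells for chow (relative log2 ratios 0.67 and 0.68). Bcl3, an atypical member of the IkB family, had 29.2 CPM in Mt-high and 14.6 CPM in Mt-low cells for HFD, and 30.8 CPM in Mt-high and 17.8 CPM in Mt-low cells for chow (0.96 and 0.67). Wipi1, an autophagy protein that binds phosphoinositides, stood at 0.89 for HFD and 0.59 for chow, and Fam134b, a receptor for autophagy of the endoplasmic reticulum, at 0.83 and 0.92. Ptpn1, a phosphatase that dampens insulin and leptin signalling, had 60.9 CPM in Mt-high and 38.3 CPM in Mt-low cells for HFD, and 66.4 CPM in Mt-high and 37.2 CPM in Mt-low cells for chow (0.63 and 0.72). Ctsb, a lysosomal protease gene, stood at 0.60 and 0.68, with 24.9% of the HFD Mt-high counts in 5 cells.

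On the lower side, Ddc, the aromatic amino acid decarboxylase of serotonin and dopamine synthesis, had 106 CPM in Mt-high and 157 CPM in Mt-low cells for HFD, and 78.9 CPM in Mt-high and 115 CPM in Mt-low cells for chow (-0.61 and -0.66). Pycr1, a mitochondrial enzyme of proline synthesis, stood at -0.76 for HFD and -0.91 for chow, and Tnr, which encodes the matrix protein tenascin R, at -0.96 and -0.64.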
